A study of Rattus norvegicus and Bos taurus with 12 samples.

Results

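Heat shock proteins and molecular chaperones were followed in adult rat ventricular myocytes (ARVM) kept in conditioned media and in bovine cardiac fibroblasts (Cfib). Members were taken by symbol: the Hspa, Hspb, Hspd, Hspe, Hsph and Hsp90 genes, the Dnaj genes, Cct2 to Cct8 and Tcp1, Bag1 to Bag6, Hyou1, Hsf1 and Hsf2, in upper or lower case. The rule found 56 of the 7052 genes listed for ARVM and 8 of the 2115 listed for Cfib, which is 64 of 9167 gene rows and 58 different symbols. 6 of these symbols were listed in both experiments. 2 symbols fell in by name alone: Hspb11 encodes a subunit of the intraflagellar transport machinery and Hspbap1 a protein that binds a small heat shock protein.

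RNA was sequenced from 12 libraries, 3 in each of 4 groups. In the first pair of groups, ARVM from healthy Sprague Dawley rats were harvested freshly isolated (libraries con4, con5 and con6) or after 7 days in media conditioned by right ventricular Cfib of calves with pulmonary hypertension (PH-CM ARVM, libraries ha2, ha209 and ha211). In the second, Cfib came from the right ventricle of control calves held at Denver altitude (CO Cfib, libraries 1, 2 and 3) or of neonatal calves made hypertensive by reduced atmospheric pressure (PH Cfib, libraries 1, 2 and 3), and were cultured to passage 2 or 3. The treatment field of the sample labels names serum of cows from low or high altitude instead. ARVM cultured without PH-CM were not analysed here, so time in culture, the medium and the conditioning cannot be told apart. Per the paper's text the Cfib libraries of a group come from 3 animals. For ARVM neither it nor the labels say whether libraries are separate rats or pools, so ARVM p-values measure the spread between these libraries, which may be technical. Both tables list only genes that the authors had selected for a difference between the groups. A member that is missing, such as Hsp90aa1, Hsp90ab1, Hspd1 or Tcp1 in ARVM, is therefore not analysed here, and its absence says nothing of its level.

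Chaperones hold unfolded proteins in solution and help them to fold. HSP70 proteins bind and release clients in cycles of ATP hydrolysis that J-domain proteins (the Dnaj genes) start and that HSP110 and BAG proteins end by exchanging the nucleotide. Small heat shock proteins hold clients without ATP, the TRiC ring folds actin and tubulin, and HSP60 with HSP10 folds proteins inside mitochondria. In the heart, where contraction puts sarcomere proteins under constant load, several small heat shock proteins and Bag3 sit at the Z-disc and protect it. Hsf1 drives transcription of the inducible members after heat and other stress, and the chaperones of the endoplasmic reticulum (ER) lumen are controlled by the separate unfolded protein response.

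In PH-CM ARVM the stress-inducible HSP70 genes Hspa1a and Hspa1b were 20.1-fold higher as a sum than in freshly isolated ARVM, whereas all 6 listed small heat shock proteins were lower, Hspb6 by 7.34-fold and Hspb1 by 4.70-fold. The listed chaperones of the ER lumen rose by small amounts. Those of mitochondria, most J-domain proteins, Bag1, Bag2, Bag3, Hsf1 and Hsf2 fell. The smaller of these falls did not pass when each library was scaled to its total over the listed genes. By limma on log2(value + 1), with an adjusted p under 0.05 as the threshold, 21 of 56 members were higher and 35 were lower in PH-CM ARVM. Of all 7052 listed genes 53.9% were higher and 43.7% lower, so 97.6% passed in one direction or the other and passing the test is in itself no distinction for a member. The median log2 fold change was -0.48 over the 56 members and 0.37 over all listed genes. In size, the log2 fold change reached 1 for 17 members, or 30.4%, against 48.5% of all listed genes. The libraries of the groups did not overlap for any member, as for 100% of listed genes.

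Directions of small changes depended on the scaling. When each library was scaled to its total over the listed genes, an alternative chosen after the data had been seen, log2 fold changes rose by a median of 0.42, and 23 members were higher, 23 lower and 10 did not pass. Of all listed genes 56.9% were then higher and 22.5% lower. The median log2 fold change was then 0.80 over all listed genes and -0.05 over the members. All 21 members called higher kept their call and direction, as did 23 of the 35 called lower. Hspa9, Hspa4, Hspa4l, Hspe1, Hspb2, Dnajc30, Bag1 and Hsf1 stayed lower in estimate, at -0.19 to -0.04, but did not pass. Hspa8 and Cct3 turned to 0.18 and 0.12 without passing, and Cct8 and Cct6a turned to 0.19 and 0.27 and passed as higher. For these 12 genes the falls that follow are on the deposited scale and did not hold under the scaling to the listed total.

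**Figure D1:**
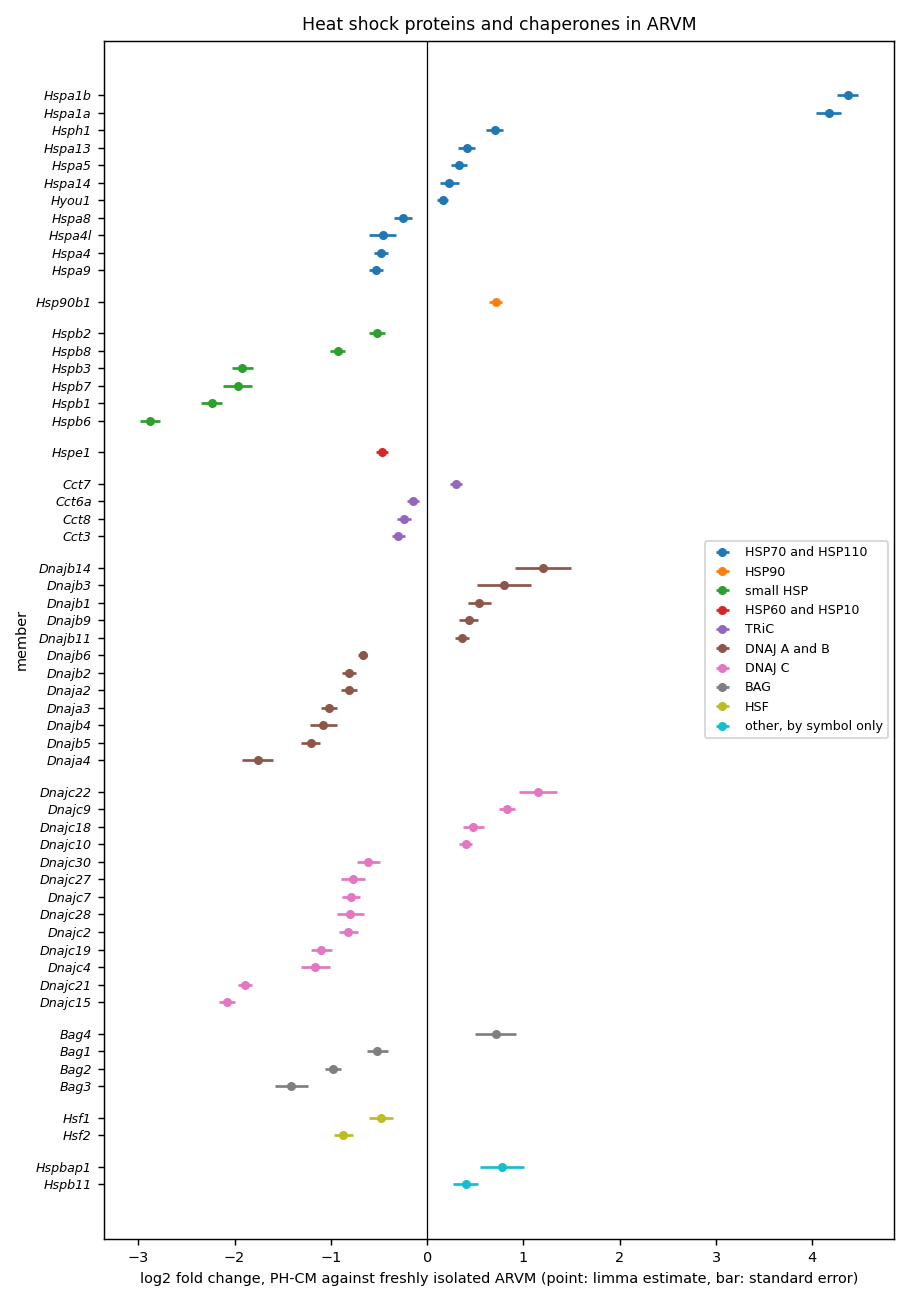
Log2 fold change of each of the 56 members in PH-CM ARVM against freshly isolated ARVM (x axis), by family (colour), with points for limma estimates and bars for standard errors from 3 libraries per group. Hspa1b and Hspa1a lie at 4.37 and 4.17, apart from the other members, and the 6 small heat shock proteins lie between -2.88 and -0.52.

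ARVM values are normalized counts, that is, reads divided by 1 size factor per library. Reads recovered over the listed genes were 12122463, 17712896 and 17926137 in the freshly isolated libraries and 18842171, 15939590 and 16842103 in PH-CM libraries ha2, ha209 and ha211. They are not scaled for gene length, so they are compared between groups for 1 gene and not between genes. Members varied little within a group, with a median coefficient of variation of 7.31% in freshly isolated and 7.53% in PH-CM libraries, against 9.74% and 10.1% over all listed genes. Freshly isolated library con4 held the highest value of its group for 28 of 56 members, PH-CM library ha209 the highest for 29 and PH-CM library ha211 the lowest for 28.

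The labelled cell type was checked against marker genes. The summed counts of the 9 listed of 10 cardiomyocyte markers were 1327531 to 1385024 in freshly isolated and 89703 to 106055 in PH-CM libraries, 14.1-fold lower. All 9 fell, with unequal log2 fold changes from -6.62 for Mb to -0.66 for Pln. Scaled to the listed total, Pln was at -0.24 and did not pass (limma adjusted p = 0.0512). All 10 fibroblast markers rose, with sums of 1578 to 2097 against 90659 to 134872 (58.2-fold), as did the 4 listed of 5 smooth muscle markers (824 to 1106 against 26798 to 44749.5, 38.2-fold). The 9 listed of 10 macrophage markers rose from 222 to 319 to 2774 to 3839 (12.9-fold), and all 6 cycling cell markers from 53.7 to 111 to 2311 to 4069 (38.1-fold). Of 8 endothelial markers 7 fell and 1 rose, with sums of 9568 to 11358 against 3755 to 4262, and the 3 listed erythroid markers, Hbb, Hba1 and Hbb-b1, fell from sums of 2097 to 2493 to 0 counts in every PH-CM library. In these bulk libraries fewer cells of a type and less RNA per cell cannot be told apart. Nor can more cells of a type and more of its marker RNA in other cells. By staining, the paper reports α-SMA (gene Acta2) in α-actinin-positive cells and periostin (gene Postn) in cells treated with PH-CM. The markers of all these cell types moved with every member described for ARVM, and their part in the results was not tested.

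The promoters of 5 members are shown because they carry the letters to which the regulators of the heat shock and ER stress responses are known to bind. The RefSeq promoter table (GRCr8 assembly) held 46 of the 56 ARVM members, and the 250 bases before each gene's start were searched on both strands. The heat shock element was searched as 3 alternating units, TTCNNGAANNTTC or GAANNTTCNNGAA, which are each other's reverse complement. It was present in 182 of 27457 promoters (0.663%) and in 3 of 46 members (6.52%), of which Hsph1 was higher and Hspa8 and Hspe1 were lower in PH-CM ARVM, although under the scaling to the listed total Hspa8 turned and Hspe1 did not pass. The ER stress element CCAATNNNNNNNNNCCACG was present in 21 of 27457 promoters (0.0765%) and in 2 of 46 members (4.35%), Hsp90b1 and Hspa5, which were both higher. The matched letters are in capitals, each sequence reads 5′ to 3′ on the strand of its gene, and in Hspe1 a pair of matches of the heat shock element overlaps.
Hsph1, chr12:10427295-10427354, plus strand, heat shock element: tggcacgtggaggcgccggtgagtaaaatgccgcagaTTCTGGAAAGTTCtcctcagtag
Hspa8, chr8:50080296-50080481, plus strand, heat shock element at both ends: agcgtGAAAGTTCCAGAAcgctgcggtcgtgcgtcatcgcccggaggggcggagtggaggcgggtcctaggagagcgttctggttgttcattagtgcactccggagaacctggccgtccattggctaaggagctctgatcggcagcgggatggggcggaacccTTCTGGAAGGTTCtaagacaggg
Hspe1, chr9:64084230-64084289, plus strand, overlapping heat shock elements: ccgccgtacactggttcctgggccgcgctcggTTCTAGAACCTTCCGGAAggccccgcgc
Hspa5, chr3:38452942-38453001, plus strand, ER stress element: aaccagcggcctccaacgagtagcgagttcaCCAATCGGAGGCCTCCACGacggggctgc
Hsp90b1, chr7:23012337-23012474, minus strand, ER stress element on the gene's strand and then on the opposite strand: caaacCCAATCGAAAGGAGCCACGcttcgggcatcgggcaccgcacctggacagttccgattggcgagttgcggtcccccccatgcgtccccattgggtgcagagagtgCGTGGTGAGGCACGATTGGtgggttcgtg
The matches start 36 bases before the gene's start in Hsph1, 213 and 55 in Hspa8, 65 and 60 in Hspe1, 43 in Hspa5, and 176 and 72 in Hsp90b1. Directions were then counted on the deposited scale, among members with a promoter in the table. The heat shock element was in 1 of 17 that were higher (5.88%) and 2 of 29 that were lower (6.90%). The ER stress element was in 2 of 17 (11.8%) and 0 of 29. The Hspa1a window held neither set of letters, which says only that these exact letters are not in these 250 bases. No promoter was matched for Hspa1b, the member with the largest rise, so it was not searched. Both members with the ER stress element rose under either scaling, and of those with the heat shock element only Hsph1 did. For comparison, 53.9% of all listed genes were higher on the deposited scale and 56.9% when scaled to the listed total. Few members carry either element, and a link between element and direction was not tested.

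Hspa1a and Hspa1b encode the major stress-inducible HSP70 of the cytosol and are near-identical copies, so the split of reads between them is uncertain. Hspa1b had 592, 560.2 and 454 normalized counts in freshly isolated libraries con4, con5 and con6 and 10388, 12356 and 10318 in PH-CM libraries ha2, ha209 and ha211 (535 ± 72.5 against 11020.5 ± 1157, mean ± SD, n = 3). Its log2 fold change was 4.37 (SE 0.11, limma adjusted p = 1.04e-07), a 20.6-fold difference of the means. Hspa1a had 138, 167 and 127 counts in freshly isolated and 2390.5, 2982 and 2457 in PH-CM libraries, with a log2 fold change of 4.17 (SE 0.13, limma adjusted p = 1.74e-07). PH-CM library ha209 was highest for both, and each PH-CM library lay far above every freshly isolated one. Because the copies can share reads, their sum was taken as well. It was 679 ± 85.4 in freshly isolated and 13630.2 ± 1478 in PH-CM libraries (n = 3), and 18.7% to 23.0% of it was assigned to Hspa1a in every library. Hspa1a also overlaps Hspa1l in the GRCr8 annotation, and whether the counting used strand is not given in the sources used here.

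Of the 11 listed of 15 HSP70 and HSP110 genes, 7 were higher and 4 lower (median log2 fold change 0.23). Of all listed genes 53.9% were higher, with a median of 0.37. Scaled to the listed total, 7 of the 11 were higher and the other 4 did not pass (median 0.66). That scaling put 56.9% of all listed genes higher, with a median of 0.80. Hspa8, the constitutive HSP70 of the cytosol, had 72332, 68331 and 65653 normalized counts in freshly isolated and 56976, 60567 and 56175 in PH-CM libraries. Its log2 fold change was -0.25 (SE 0.09, limma adjusted p = 0.0331), and the call was lost when any 1 of 4 libraries was left out, with adjusted p from 0.0699 to 0.0841. Under the scaling to the listed total it was at 0.18 (limma adjusted p = 0.115), so no direction is given for it. Hspa9, the HSP70 of the mitochondrial matrix, fell from 14468, 15419 and 14913 to 10099.5, 11129 and 9731 counts (log2 fold change -0.53, SE 0.07, limma adjusted p = 0.000185), and was at -0.11 (limma adjusted p = 0.220) scaled to the listed total. The ER member Hspa5, also called BiP, rose from 27888, 24850.3 and 24403 to 32655, 33730.4 and 30702 (log2 fold change 0.33, SE 0.08, limma adjusted p = 0.00545).

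HSP110 proteins are distant HSP70 relatives that exchange the nucleotide of HSP70. Hsph1, the heat-inducible one, rose from 1277, 1079 and 1117 to 1949, 1707 and 1989.7 normalized counts (log2 fold change 0.70, SE 0.09, limma adjusted p = 0.000191). Its relatives Hspa4 and Hspa4l fell, with log2 fold changes of -0.48 (SE 0.07, limma adjusted p = 0.000446) and -0.46 (SE 0.14, limma adjusted p = 0.0142). Hspa4 had 8219.9, 7246 and 7789 counts in freshly isolated and 6000.0, 5418 and 5281 in PH-CM libraries. Hspa4l had 286, 327 and 343 against 252, 231 and 212. Scaled to the listed total, both were close to 0, at -0.05 and -0.04, and did not pass, whereas Hsph1 was at 1.12. Hspa14, which works with the J-domain protein Dnajc2 at the ribosome, had 486, 537 and 455 counts against 557, 570.3 and 608. Its log2 fold change of 0.23 (SE 0.10, limma adjusted p = 0.0489) passed narrowly and failed in 9 alternatives, among them edgeR (adjusted p = 0.0779) and DESeq2 (adjusted p = 0.117) on the recovered reads.

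On the deposited scale, the summed normalized counts of the 11 listed HSP70 and HSP110 genes overlapped between the groups, at 120962 to 130999 in freshly isolated and 123762 to 135148 in PH-CM libraries. Hspa1a and Hspa1b together made up 0.557%, 0.586% and 0.480% of this sum in freshly isolated libraries con4, con5 and con6 and 10.02%, 11.35% and 10.32% in PH-CM libraries ha2, ha209 and ha211. Hspa8 went from 54.3% to 55.2% of the sum to 44.7% to 45.4%, and Hspa5 from 20.0% to 21.3% to 24.8% to 25.6%. These are shares of counts, which grow with transcript length, and not shares of molecules. The overlap of the sums belongs to the deposited scale. As a share of all counts over listed genes, the 11 genes took 0.653% to 0.683% in freshly isolated and 0.868% to 0.983% in PH-CM libraries, which did not overlap.

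**Figure D2:**
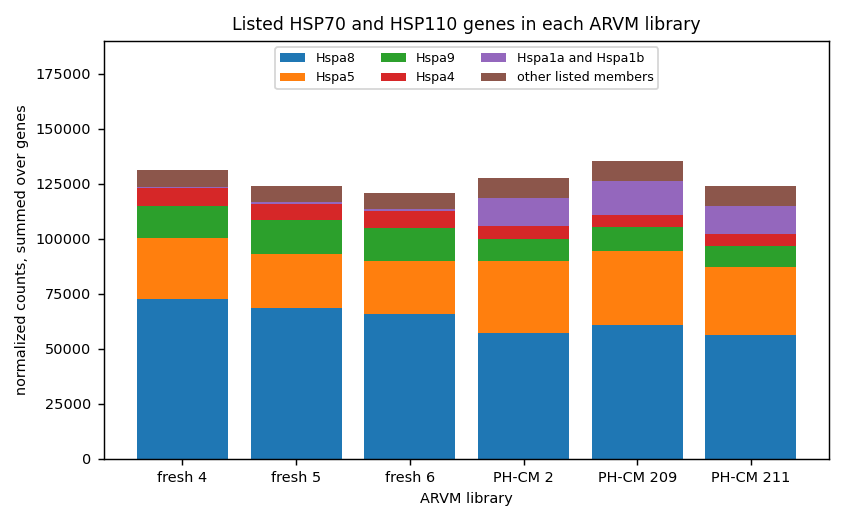
Normalized counts of the 11 listed HSP70 and HSP110 genes (y axis), stacked by gene for each ARVM library (x axis). On this deposited scale the totals overlap between the groups at 120962 to 130999 and 123762 to 135148 (as a share of the listed total they do not, at 0.653% to 0.683% and 0.868% to 0.983%), whereas the Hspa1a and Hspa1b segment grows from at most 0.586% to at least 10.02%.

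The J-domain protein Dnajb1, the main heat-inducible partner of cytosolic HSP70, rose in PH-CM ARVM from 468, 471 and 506 to 622, 671 and 829 normalized counts (log2 fold change 0.54, SE 0.12, limma adjusted p = 0.00332). PH-CM library ha211 was the highest. Some genes known as targets of Hsf1 were higher and others lower. Hspa1a, Hspa1b, Hsph1 and Dnajb1 were higher by very unequal amounts, while Hspb1 and Bag3, also known targets, were lower at -2.24 and -1.41, as were Hspe1 and Hspa8 on the deposited scale, at -0.47 and -0.25. These targets were picked after their values had been seen, others were left out, and the activity of Hsf1 was not tested. Hsf1 had 582, 749 and 746 counts in freshly isolated and 478, 531 and 474 in PH-CM libraries (log2 fold change -0.48, SE 0.12, limma adjusted p = 0.00639), and library con4 was the lowest of its group and the nearest to the PH-CM libraries. Scaled to the listed total, Hsf1 was at -0.05 (limma adjusted p = 0.722). Hsf2, a related factor active in development, fell from 1934, 1503 and 1836 to 929, 1029 and 911 (log2 fold change -0.87, SE 0.10, limma adjusted p = 0.000132).

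**Figure D3:**
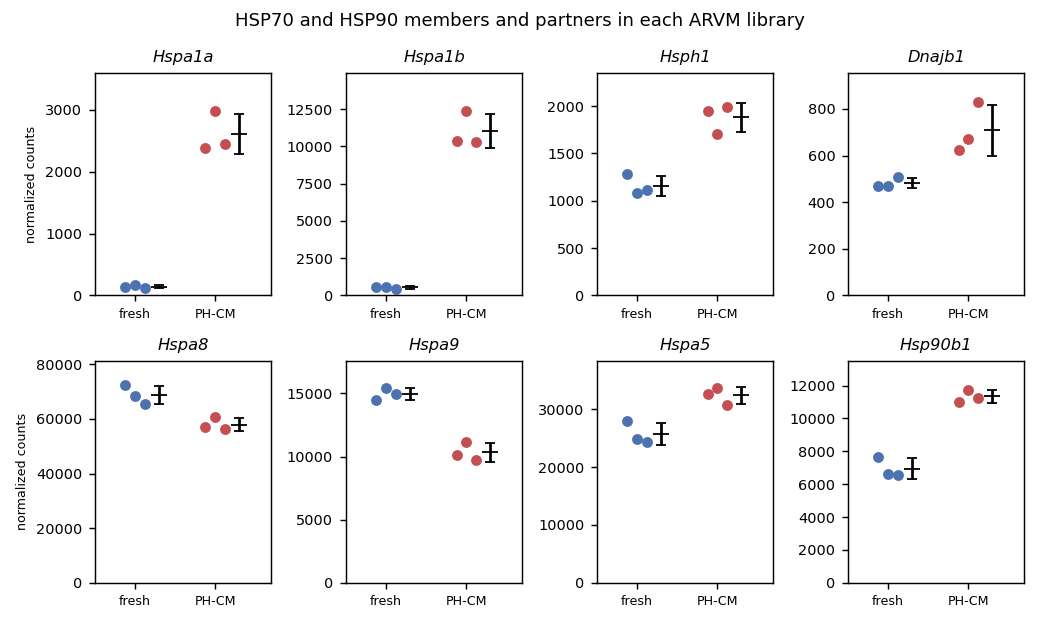
Normalized counts (y axes, from 0) of 8 members in the freshly isolated (blue) and PH-CM (red) ARVM libraries, with points for libraries and black bars for the mean ± SD of 3. Hspa1a, Hspa1b, Hsph1, Dnajb1, Hspa5 and Hsp90b1 are higher in every PH-CM library and Hspa8 and Hspa9 lower on this deposited scale. Scaled to the listed total, neither Hspa8 nor Hspa9 passed as lower.

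The 7 listed members that work in the ER lumen all rose, with log2 fold changes of 0.16 to 0.71 and a median of 0.40. They were put together after their values had been seen, and over all listed genes 53.9% rose and the median was 0.37, so their median is near the background. Hsp90b1, the HSP90 of the ER also called GRP94, had the largest rise of them, at 7671, 6612 and 6559.7 normalized counts in freshly isolated and 11025, 11747 and 11223 in PH-CM libraries (log2 fold change 0.71, SE 0.07, limma adjusted p = 6.12e-05). It was also the only listed member of the HSP90 family. Hspa13 rose by 0.41 (SE 0.09, limma adjusted p = 0.00312). The J-domain partners of BiP rose by 0.43 for Dnajb9, 0.36 for Dnajb11 and 0.40 for Dnajc10, a reductase of disulfide bonds. Hyou1, the HSP110 of the ER, had 4582, 4954 and 5073 counts against 5433, 5529 and 5347. Its log2 fold change was 0.16 (SE 0.06, limma adjusted p = 0.0252), and the call was lost in 6 alternatives, for instance with edgeR (adjusted p = 0.0789).

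Partners of BiP and GRP94 outside the symbol rule gave a mixed count. Of 8 genes in this list 7 were listed, 5 were higher, 1 was lower and 1 did not pass. Their median log2 fold change was 0.58, against 0.37 over all listed genes, of which 53.9% were higher. Sil1, the nucleotide exchange factor of BiP, rose from 191, 176 and 160.1 to 526, 583 and 593 normalized counts (log2 fold change 1.69, SE 0.13, limma adjusted p = 1.04e-05). Serpinh1, the collagen chaperone, rose by 1.14 (SE 0.12, limma adjusted p = 6.61e-05) and the lectin chaperone Calr by 0.63 (SE 0.10, limma adjusted p = 0.000548). Sdf2l1 was at -0.43 and Sdf2 at 0.13 (limma adjusted p = 0.0600), and scaled to the listed total the first did not pass and the other rose by 0.55. Among 4 listed of 10 stress factors and sensors, the transcription factor Atf5 rose by 1.81 (limma adjusted p = 9.65e-07) and the ER stress kinase Eif2ak3, or PERK, by 0.95. The sensor Ern1, or IRE1, fell by 0.61 on the log2 scale, or by 0.19 without passing (limma adjusted p = 0.352) when scaled to the listed total. Hsbp1 was at -0.22 (limma adjusted p = 0.0176) and turned to 0.20 (limma adjusted p = 0.0169) under that scaling.

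All 6 listed of 7 small heat shock proteins in the list fell in PH-CM ARVM (median log2 fold change -1.95), as did 43.7% of all listed genes. Scaled to the listed total, 5 fell (median log2 fold change -1.52) and Hspb2 did not pass, while 22.5% of all listed genes fell. Hspb6, also called HSP20 and a substrate of cyclic nucleotide kinases in heart muscle, had 11849, 11642 and 11851 normalized counts in freshly isolated and 1739, 1728 and 1349.9 in PH-CM libraries. The log2 fold change was -2.88 (SE 0.10, limma adjusted p = 2.19e-07), which is 7.34-fold lower. Hspb1, or HSP27, which binds actin filaments and titin, had 95415, 110575 and 105323 counts against 20428, 24898 and 20889 (log2 fold change -2.24, SE 0.11, limma adjusted p = 1.14e-06). For both genes the highest PH-CM library remained far below the lowest freshly isolated one. Hspb6 overlaps Lin37 in the GRCr8 annotation, and reads of these neighbours may be shared.

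Hspb7, a muscle-specific member that binds filamin C, fell from 42956, 48652 and 50192 to 11347, 15139.7 and 10096 normalized counts, 3.88-fold (log2 fold change -1.97, SE 0.15, limma adjusted p = 9.73e-06). Hspb3 fell from 929, 828 and 951 to 253, 245 and 217, 3.79-fold (log2 fold change -1.92, SE 0.11, limma adjusted p = 2.54e-06). Its binding partner Hspb2, which together with it forms a muscle complex, fell by less, from 3824, 4222 and 4385 to 3212, 2790.2 and 2702, or 1.43-fold (log2 fold change -0.52, SE 0.08, limma adjusted p = 0.000635). Scaled to the listed total, Hspb3 was at -1.50 and Hspb2 at -0.09 (limma adjusted p = 0.358), and the difference between their changes was not tested. Hspb2 overlaps Cryab in the GRCr8 annotation, so its counts may hold Cryab reads. Hspb8, or HSP22, fell from 36569, 35389 and 37969 to 19882, 20123 and 17599.9, 1.91-fold (log2 fold change -0.93, SE 0.08, limma adjusted p = 1.98e-05).

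Summed over the 6 genes, small heat shock protein counts were 191541 to 211309 in freshly isolated and 52855 to 64924 in PH-CM libraries, 3.51-fold lower. In the same libraries the summed cardiomyocyte markers were 14.1-fold lower. Cryab, the α-B-crystallin that lies outside the symbol rule and next to Hspb2, which it overlaps, fell from 121534, 117507 and 115964 to 60589.7, 62768 and 53449 normalized counts (log2 fold change -1.01, SE 0.11, limma adjusted p = 8.15e-05). It was the only listed gene of the 4 in its list.

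Bag3 joins HSP70 to Hspb8 and sends damaged sarcomere proteins to autophagy. It had 6337, 10062 and 9914 normalized counts in freshly isolated libraries con4, con5 and con6 and 3183, 3555 and 2982 in PH-CM ARVM. Library con4 lay well under the other freshly isolated ones, yet above all PH-CM libraries. The log2 fold change was -1.41 (SE 0.17, limma adjusted p = 0.000146), and -1.63 without library con4. Bag2, which blocks ubiquitination of HSP70 clients, fell from 2167, 2350.1 and 2140.4 to 1218, 1044 and 1109.5 (log2 fold change -0.98, SE 0.08, limma adjusted p = 1.18e-05). Bag1, which couples HSP70 to the proteasome, fell from 2292, 1987 and 1721 to 1478, 1336 and 1333 (log2 fold change -0.52, SE 0.11, limma adjusted p = 0.00206), and was at -0.10 (limma adjusted p = 0.365) scaled to the listed total. In contrast, Bag4, a silencer of death receptors, rose from 108, 111 and 89.9 to 157, 207 and 146 (log2 fold change 0.71, SE 0.21, limma adjusted p = 0.0127). Bag4 overlaps Lsm1 in the annotation.

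**Figure D4:**
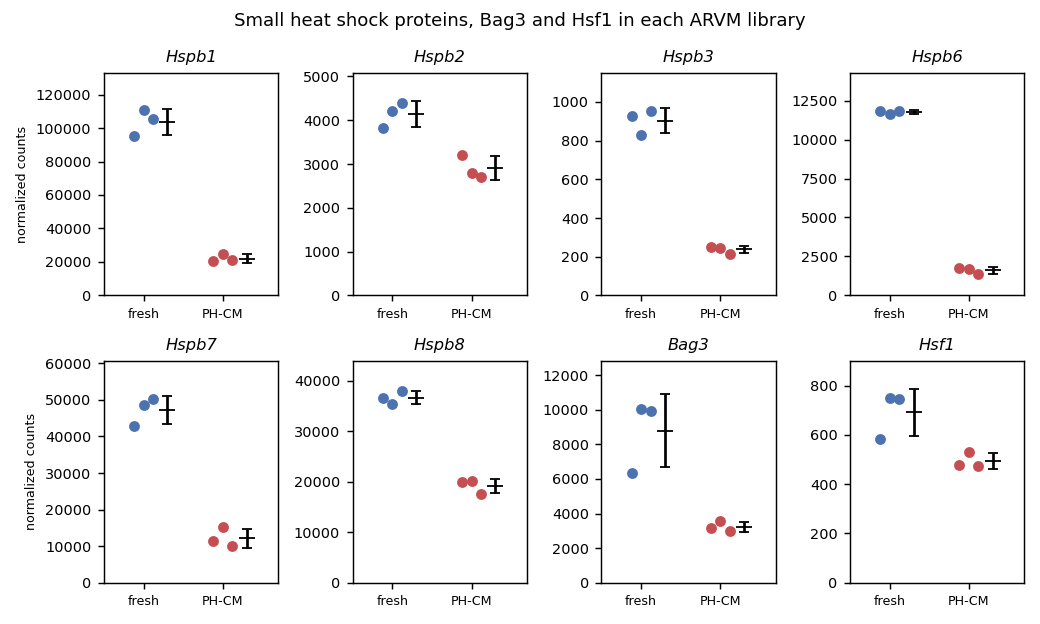
Normalized counts (y axes, from 0) of the 6 listed small heat shock proteins, Bag3 and Hsf1 in the freshly isolated (blue) and PH-CM (red) ARVM libraries, with points for libraries and black bars for the mean ± SD of 3. Every PH-CM library is below every freshly isolated one in all 8 panels, from 7.34-fold for Hspb6 to 1.43-fold or less for Hspb2 and Hsf1, whose falls did not pass when scaled to the listed total.

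The 12 listed of 17 J-domain proteins of classes A and B were split, with 5 higher, 7 lower and a median log2 fold change of -0.74. Of all listed genes 53.9% were higher and 43.7% lower, with a median of 0.37. Dnaja4, a cytosolic HSP70 partner, fell from 3673, 3709 and 4188 to 1046, 1487 and 947 normalized counts (log2 fold change -1.76, SE 0.16, limma adjusted p = 2.56e-05). Dnajb5 fell by 1.21 on the log2 scale, from 2527, 2885 and 2788 to 1178, 1347 and 1029 (SE 0.10, limma adjusted p = 2.05e-05). Dnajb4 had 3156, 2771 and 3125 counts against 1254, 1820.4 and 1255 (log2 fold change -1.08, SE 0.14, limma adjusted p = 0.000228), and PH-CM library ha209 was the highest of its group for all these genes. The other members that fell were Dnaja3, Dnajb2, Dnaja2 and Dnajb6, a suppressor of aggregation whose mutations cause myopathy, with log2 fold changes of -1.02 to -0.67. Besides Dnajb1, Dnajb9 and Dnajb11, the members that rose were the ER membrane protein Dnajb14 and Dnajb3, both at low counts. Dnajb14 had 31.7, 30.0 and 48.6 counts against 71.1, 94.0 and 87.2 (log2 fold change 1.20, SE 0.29, limma adjusted p = 0.00493). Dnajb3 had 95.0, 64.3 and 57.8 against 98.3, 149 and 130.3 (log2 fold change 0.80, SE 0.28, limma adjusted p = 0.0228). It lies within the Ugt1a gene cluster and lost its call when any 1 of 4 libraries was left out.

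In class C, whose J-domains serve many special tasks, 9 of 13 listed genes fell and 4 rose (median log2 fold change -0.79). The shares over all listed genes were 43.7% and 53.9%. 28 genes are in the class C list. Dnajc15, of the mitochondrial inner membrane, fell from 5911, 5009 and 5230.2 to 1326, 1207 and 1288 normalized counts (log2 fold change -2.08, SE 0.08, limma adjusted p = 2.82e-07). Dnajc21, which matures the large ribosomal subunit, fell from 1600.0, 1537 and 1488 to 396, 431 and 416 (log2 fold change -1.89, SE 0.07, limma adjusted p = 3.93e-07). Both had narrow groups, with SDs of 470.2 and 60.7 counts for Dnajc15 and 56.3 and 17.6 for Dnajc21. Dnajc4 had 461, 418 and 424 counts against 162, 204 and 221 (log2 fold change -1.16, SE 0.15, limma adjusted p = 0.000216). The other 6 that fell were Dnajc19, Dnajc2, Dnajc28, Dnajc7, which binds both HSP70 and HSP90, Dnajc27 and Dnajc30, with log2 fold changes of -1.10 to -0.61. Dnajc22 rose from 72.8, 66.4 and 59.9 to 148, 138 and 157 (log2 fold change 1.15, SE 0.20, limma adjusted p = 0.00100). Dnajc9, a chaperone of histone H3 that is made during replication, rose from 576, 555 and 572 to 949.8, 1028 and 1061 (log2 fold change 0.83, SE 0.08, limma adjusted p = 3.2e-05), in libraries whose summed cycling cell markers were 38.1-fold higher. Dnajc18 and Dnajc10 rose by 0.48 and 0.40 on the log2 scale. Dnajc9, Dnajc7, Dnajc19, Dnajc27 and Dnajc28 each overlap another protein-coding gene in the annotation.

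A set of 6 listed members that act in mitochondria, which may leave out others, fell on the deposited scale (median log2 fold change -0.82). So did 43.7% of all listed genes. They too were grouped after their values had been seen, and Hspa9, Hspe1 and Dnajc30 did not pass when scaled to the listed total. Besides Hspa9 and Dnajc15, these were Dnaja3 (-1.02), Dnajc30, Hspe1 and Dnajc19. Dnajc30 had 386, 441 and 433 normalized counts against 256, 278 and 289 (log2 fold change -0.61, SE 0.12, limma adjusted p = 0.00168). Dnajc19, part of the motor that pulls proteins into the matrix, went from 2339, 1895 and 2070.2 to 1119, 911 and 918 normalized counts (log2 fold change -1.10, SE 0.11, limma adjusted p = 4.54e-05). Hspe1, the HSP10 lid of the mitochondrial HSP60 chamber, went from 6489, 6490.0 and 6054 to 4838, 4267 and 4606 (log2 fold change -0.47, SE 0.06, limma adjusted p = 0.000247). As a share of the listed total its groups overlapped, at 0.0327% to 0.0342% and 0.0310% to 0.0340%. It overlaps Hspd1, the HSP60 gene, which was not listed. In a list of 12 mitochondrial chaperones and proteases outside the symbol rule, 8 were listed, 7 fell and 1 rose (median log2 fold change -0.65). Scaled to the listed total, Grpel1, Afg3l2, Clpx and Spg7 fell, Trap1 and Clpb did not pass, and Lonp1 and Htra2 rose. Grpel1, the exchange factor of Hspa9, fell from 4036, 3930.0 and 3619.7 to 1509, 1324 and 1364 counts (log2 fold change -1.46, SE 0.07, limma adjusted p = 1.11e-06). The proteases Afg3l2 and Clpx fell by 1.36 and 1.05 on the log2 scale, and Htra2 rose by 0.30.

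Changes in the TRiC ring were small. Of 9 genes in the list 4 were listed, with log2 fold changes of -0.30 to 0.30, although the subunits act in 1 complex. Of these only the rise of Cct7 held under both scalings. Cct3 fell from 9799, 9299 and 8462 to 7677, 7325 and 7350.2 normalized counts (SE 0.07, limma adjusted p = 0.00338) and Cct8 by 0.24 on the log2 scale (SE 0.07, limma adjusted p = 0.0144), from 6905, 6011 and 5819 to 5387, 5149 and 5336. Cct7 rose by 0.30, from 7107, 6969.9 and 6790.1 to 8179, 8886 and 8648 (SE 0.06, limma adjusted p = 0.00126). Cct6a had 4208, 4245 and 4232 counts against 3800.1, 4072 and 3582, and its log2 fold change of -0.15 (SE 0.06, limma adjusted p = 0.0402) lost its call in 7 alternatives. The TRiC sums overlapped between the groups, at 25303 to 28020 and 24916 to 25432, on the deposited scale. As a share of the listed total they did not overlap and were higher in PH-CM libraries, at 0.137% to 0.146% against 0.175% to 0.185%. Among prefoldin and tubulin cofactors 4 of 14 genes were listed, of which Tbcd, Tbca and Txndc9 rose by 0.29 to 0.33 on the log2 scale and Pdcl3 fell by 0.22, which turned to 0.20 scaled to the listed total.

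Hspb11 and Hspbap1, which matched by symbol only, rose in PH-CM ARVM. Hspb11 had 361, 293 and 302 normalized counts against 433, 377 and 455 (log2 fold change 0.40, SE 0.13, limma adjusted p = 0.0193) and lost its call when any 1 of 4 libraries was left out. Hspbap1 had 142, 245 and 176 against 368, 309.7 and 273 (log2 fold change 0.78, SE 0.23, limma adjusted p = 0.0110) and lost its call without PH-CM library ha2 (adjusted p = 0.0520).

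Among 21 partners of HSP70 and HSP90 outside the symbol rule 15 were listed. Against 53.9% higher and 43.7% lower over all listed genes, 5 were higher and 10 lower (median log2 fold change -0.35). Of those 10, only Itgb1bp2, Smyd1 and Fkbp4 stayed lower when scaled to the listed total, and Ahsa1 turned to 0.21 and passed as higher. Itgb1bp2, or melusin, a striated muscle chaperone partner of HSP90, fell the most, from 3178, 2961 and 2802 to 268, 223 and 220.0 normalized counts (log2 fold change -3.65, SE 0.10, limma adjusted p = 1.05e-07). Smyd1, a muscle methyltransferase that works with HSP90 on myosin, fell by 1.45 on the log2 scale (SE 0.13, limma adjusted p = 3.24e-05). Fkbp4, an immunophilin of steroid receptor complexes, fell by 0.91 (SE 0.06, limma adjusted p = 6.49e-06). Of the myosin chaperones, the general form Unc45a rose by 0.77 on the log2 scale, and the muscle form Unc45b had -0.44, which became -0.01 scaled to the listed total.

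The Cfib comparison asks how fibroblasts of the hypertensive right ventricle differ from those of control calves. In PH Cfib the ER chaperone gene HYOU1 was 1.79-fold and DNAJC3 1.80-fold higher, HSPB6 was 2.26-fold higher, and HSPB8 was 4.49-fold lower. By limma 5 of 8 members were higher and 3 lower, and 4 were higher without DNAJB4, whose direction turned with the scaling, whereas of all 2115 listed genes 58.2% were higher and 39.4% lower and 97.5% passed in one direction or the other. Rescaling the libraries by the median of ratios took the share of higher genes among all calls from 59.6% to 49.2%. The median log2 fold change was 0.44 over the 8 members and 0.33 over all listed genes, and 2 members (25.0%) reached a log2 fold change of 1 in size, against 34.1%. Groups did not overlap for any member, as for 100% of listed genes. Cfib signal is scaled for the length of the gene and for the library, and its depth is unknown. HSP90, HSP60 and HSP10, and HSF genes were not listed.

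HYOU1 had a signal of 58.2, 55.8 and 46.5 in CO Cfib 1, 2 and 3 and of 94.0, 98.2 and 95.5 in PH Cfib 1, 2 and 3 (log2 fold change 0.84, SE 0.09, limma adjusted p = 0.000239). DNAJC3, or p58IPK, an ER lumen partner of BiP, had 61.9, 62.4 and 54.5 against 100.1, 111 and 111 (log2 fold change 0.84, SE 0.08, limma adjusted p = 0.000127). Both ER members were higher in every PH library. HSPA12B, a distant HSP70 relative known from endothelium, had 6.39, 6.33 and 5.57 against 10.8, 10.8 and 10.1 (log2 fold change 0.71, SE 0.08, limma adjusted p = 0.000304). None of the 8 endothelial markers was listed, which says nothing of their level. SERPINH1, the collagen chaperone outside the symbol rule, rose from 511, 459.6 and 526 to 898, 919.7 and 897 (log2 fold change 0.86, SE 0.09, limma adjusted p = 0.000181), and ATF5 rose by 0.72 on the log2 scale.

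The small heat shock proteins moved in opposite directions. HSPB8 fell from 47.1, 39.9 and 44.0 to 10.1, 9.22 and 9.89 (log2 fold change -2.06, SE 0.08, limma adjusted p = 4.59e-06). HSPB6 rose from 195, 164 and 106 to 365, 343 and 339.8 (log2 fold change 1.21, SE 0.21, limma adjusted p = 0.00186). Over all listed genes PH libraries were more alike than CO libraries, with a median coefficient of variation of 5.01% against 13.7%. Over the 8 members it was 4.30% against 9.93%, and the reason was not tested. For HSPB6 too the CO libraries spread widely, with CO Cfib 3 lowest, and the PH libraries little. Its SD was 45.3 in CO and 13.6 in PH Cfib. With the PH libraries averaged into 1 sample, which is then assumed to vary like the others, the call was lost (adjusted p = 0.0600). CRYAB fell from 70.9, 67.0 and 88.3 to 45.4, 41.9 and 42.3 (log2 fold change -0.78, SE 0.11, limma adjusted p = 0.000678). Of the smooth muscle markers 3 of 5 were listed, 2 higher and 1 lower, with summed signal of 93.8 to 131 in CO and 211.3 to 224.8 in PH Cfib, and their part in the HSPB6 result was not tested.

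BAG2 fell from 35.5, 30.1 and 42.4 to 19.1, 19.6 and 18.1 (log2 fold change -0.88, SE 0.12, limma adjusted p = 0.000683). CCT3 fell from 165, 175 and 213 to 106, 116 and 119 (log2 fold change -0.69, SE 0.11, limma adjusted p = 0.00111). For both, CO Cfib 3 was the highest library. The 4 listed of 6 cycling cell markers fell together in the same libraries, from summed signal of 166 to 265 to 11.0 to 13.3, and their part in these results was not tested. DNAJB4 had 67.7, 64.3 and 68.1 against 77.9, 70.9 and 77.9. Its log2 fold change of 0.18 (SE 0.06, limma adjusted p = 0.0287) turned to -0.11 (adjusted p = 0.165) when libraries were rescaled by the median of ratios, which moved the median over all Cfib genes by -0.27, so no direction is given for it.

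**Figure D5:**
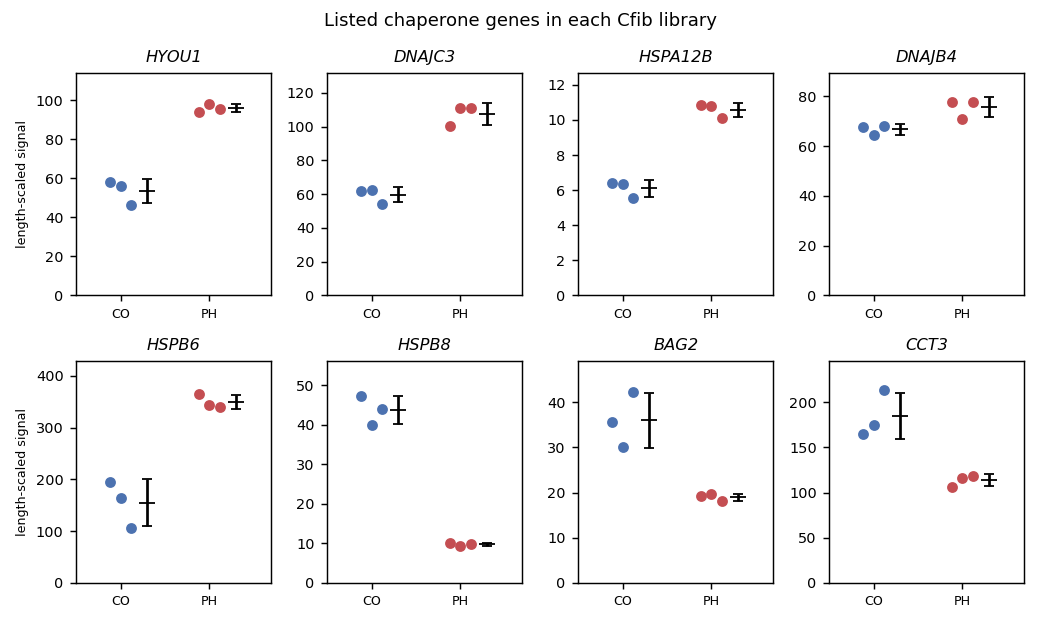
Length-scaled signal (y axes, from 0) of the 8 listed members in CO (blue) and PH (red) Cfib libraries, with points for libraries and black bars for the mean ± SD of 3. HYOU1, DNAJC3, HSPA12B and HSPB6 are higher and HSPB8, BAG2 and CCT3 lower in every PH library, and DNAJB4 differs by a log2 fold change of 0.18, which turns to -0.11 under another scaling.

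Other Cfib markers were read the same way. The 3 listed of 10 fibroblast markers, COL1A2, TCF21 and POSTN, rose from summed signal of 1885 to 2547 to 6044 to 6351. The 4 listed of 10 macrophage markers summed to 7.76 to 11.0 in CO and 9.47 to 10.1 in PH Cfib, with 3 higher and 1 lower, and C1QA and C1QB were at 0 in CO Cfib. No cardiomyocyte or erythroid marker was listed, which says nothing of their level. Of 12 mitochondrial chaperones and proteases outside the rule 3 were listed and all fell, as did 39.4% of all listed Cfib genes. YME1L1 fell by 0.56, GRPEL2 by 0.24 and TRAP1 by 0.19 on the log2 scale. Of 21 partners of HSP70 and HSP90, PPP5C fell by 0.23, and UNC45A had a log2 fold change of -0.11 that did not pass (limma adjusted p = 0.0696).

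The 6 genes listed in both experiments are given side by side, from different species and different contrasts, and the differences between them were not tested. HSPB6 had a log2 fold change of -2.88 in PH-CM ARVM and 1.21 in PH Cfib. HSPB8 stood at -0.93 and -2.06, BAG2 at -0.98 and -0.88, and CCT3 at -0.30 and -0.69, of which the first turned with the scaling. HYOU1 was at 0.16 and 0.84, and DNAJB4 at -1.08 and 0.18. HSPB8 and BAG2 were thus lower in both treated groups, and HSPB6 was lower in PH-CM ARVM and higher in PH Cfib. HYOU1 was higher in both. In ARVM its change was under the median of 0.37 over all listed genes, and its call was lost in 6 alternatives.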

How the data were processed

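RNA sequencing of 12 libraries was analysed, 3 per group: freshly isolated and PH-CM ARVM (rat), and CO and PH Cfib (bovine). Per the submitters' processing notes and the paper's methods, the authors used HISAT2 and StringTie with rn6 and bosTau8 and DESeq2 for normalization, and the tables hold genes selected by p-value. No tool versions are given in the sources used here. The deposited ARVM values are a signal, reads divided by a size factor. 100% of them were whole reads within 0.01. The deposited Cfib signal is scaled by length and library, and its unit and depth were not settled.

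Differences between groups were tested on log2(value + 1) with limma 3.58.1 in R 4.3.3 (moderated statistics, mean-variance trend), adjusted by Benjamini-Hochberg over every listed gene, at a threshold of 0.05. Fold changes on this scale understate those of low genes. edgeR 4.0.16 (quasi-likelihood, TMM) on the recovered reads called 3736 of 7052 ARVM genes higher and 3079 lower, and DESeq2 1.42.0 called 3636 and 3032. Other alternatives were pseudocounts of 0.1 and 10, a minimum mean (50 for ARVM, 5 for Cfib), limma with no trend, leaving out each library, scaling by the median of ratios, a replicate block and averaged PH libraries. Scaling each library to its total over the listed genes was added after the data had been seen. Scripts were tested on simulated data. Sums, ratios and figures used Python 3.11.15, pandas 2.3.3 and matplotlib 3.10.9.

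Members and lists were chosen with earlier results of these data known. Values per library are given for all Cfib members, up to 4 ARVM members per family with the largest change (where the higher group averaged 10 or more), members listed in both tables and members whose call changed in an alternative. Values of Hspa5, Dnajb1, Dnajc9 and Dnajc19 are given because of their roles, chosen after their values were seen. Outside the symbol rule the 3 largest changes per list are named. Sdf2l1, Sdf2, Hsbp1, Htra2, Pdcl3, Spg7, Trap1, Clpb, Lonp1, Ahsa1, Unc45a and Unc45b were added after their values were seen. Promoters came from RefSeq (GRCr8), matched by symbol, and gene overlaps from the same assembly. No bovine sequence, protein sequence or rn6 genome was used here.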

Additional observations from a re-analysis of the deposited data

How the results depend on the processing

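Of the 56 ARVM members 39 kept their call in every alternative. Scaled to the listed total, 23 members were lower and the member median was -0.05. Hspa8, Cct3, Cct8 and Cct6a turned there to 0.18, 0.12, 0.19 and 0.27, and 8 other members lost their call. Over all ARVM genes that scaling made 71.6% of calls higher, against 55.2%, and 1588 genes were lower, against 3080. In Cfib it moved the member median to 0.35. In the other alternatives every ARVM member kept its direction and Hspa8, Hyou1, Hspa14, Cct6a, Hspb11, Hspbap1 and Dnajb3 lost the call in at least 1. With 1 library left out, 17 to 19 members were higher and 33 to 35 lower, and the member median was -0.52 to -0.46 on the log2 scale. In Cfib, 4 to 5 members were higher, 3 lower and the median was 0.42 to 0.46. The Cfib median of 0.44 became 0.48 with a pseudocount of 0.1, 0.26 with a pseudocount of 10 and 0.17 under the median of ratios, which turned DNAJB4 to -0.11 and shifted the log2 fold changes of all Cfib genes by a median of -0.27. Over all Cfib genes that rescaling gave 840 higher and 869 lower calls, or 49.2% higher, against 59.6%. It moved ARVM values by -0.02. With the PH libraries averaged, 3 Cfib members were higher, and 529 genes were higher and 509 lower in all, a fit with fewer samples in which the lone sample is assumed to vary like CO Cfib. DNAJB4 also lost its call there (adjusted p = 0.176) and without CO Cfib 2 (0.0754), PH Cfib 1 (0.0948) or PH Cfib 3 (0.102). The replicate block left 5 Cfib members higher and 3 lower, with 1191 and 792 genes in all. Deviations of Cfib libraries with equal numbers correlated at 0.258, 0.0312 and 0.259, each above those with other numbers except the second. Nothing in the labels says that equal numbers pair the calves, so the block was kept as an alternative. These correlations do not settle whether the numbers are pairs. No paired analysis was possible for ARVM because its groups share no replicate number. ARVM depth limits low members such as Dnajb14, and Cfib depth is unknown.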
